A study of Oryctolagus cuniculus with 24 samples.

Results

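Measured here were the proteasome genes of rabbit blood, taken as every non-control array probe whose gene symbol starts with PSMA, PSMB, PSMC, PSMD, PSME, PSMF or PSMG. They comprised 45 of the 28865 genes on the array, covered by 100 probes, and 5 of them, PSMB8, PSMB9, PSMB10, PSME1 and PSME2, were compared as the inducible genes with the other 40. Peripheral blood mononuclear cells (PBMCs), the lymphocytes and monocytes left after density gradient separation of blood, came from 4 rabbits, adult females of the New Zealand White breed, which the labels number 1, 2, 4 and 5. Cells of each rabbit were cultured for 4 h (T4) or 24 h (T24) in 3 ways, which gave 6 groups of 4 arrays. The mock cultures were not stimulated, the LPS cultures received lipopolysaccharide, a bacterial wall component, at 1 µg/mL, and the PMA-Ionomycin cultures received the protein kinase C activator phorbol myristate acetate at 10 ng/mL together with the calcium ionophore ionomycin at 1 µg/mL. All groups shared the same serum-containing medium, and the cells were a mixture whose composition could change in culture. The p-values measure the spread between the cultures of 4 rabbits.

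The proteasome is the protease complex that degrades ubiquitin-tagged proteins in the cytosol and nucleus. Its barrel-shaped core is built of alpha rings (PSMA genes), which gate the entry, and beta rings (PSMB genes), which hold the catalytic sites, and a regulatory particle made of ATPases (PSMC genes) and non-ATPase subunits (PSMD genes) binds, unfolds and feeds the substrates. In immune cells, and after exposure to interferon gamma, the catalytic subunits PSMB5, PSMB6 and PSMB7 can be replaced by PSMB8, PSMB9 and PSMB10 in newly assembled cores, which is called the immunoproteasome, and the PSME1 and PSME2 proteins form an activator ring that opens the core. The products of this form of the complex feed peptide presentation on class I major histocompatibility molecules.

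The probes that carried the comparison of inducible and constitutive genes are shown first, since each value below is the signal of these 60-base oligonucleotides. Positions are those of the array annotation on the oryCun2 rabbit assembly. The pairs of genes whose products take each other's place in the core were measured by these probes, with both probes of PSMB6 given because they behaved differently:
PSMB8: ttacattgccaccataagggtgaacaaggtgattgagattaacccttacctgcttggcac
PSMB5: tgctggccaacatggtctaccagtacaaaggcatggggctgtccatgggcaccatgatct
PSMB9: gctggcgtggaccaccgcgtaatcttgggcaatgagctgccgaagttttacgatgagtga
PSMB6, probe 1: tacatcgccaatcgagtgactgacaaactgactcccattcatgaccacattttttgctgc
PSMB6, probe 2: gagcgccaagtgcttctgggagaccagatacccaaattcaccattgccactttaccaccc
PSMB10: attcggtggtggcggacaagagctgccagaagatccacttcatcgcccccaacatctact
PSMB7: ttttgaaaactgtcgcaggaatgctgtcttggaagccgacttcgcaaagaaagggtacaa

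The probe of PSMB8 was annotated at chr12:23359095-23359308 on the minus strand and that of PSMB9 at chr12:23377365-23377424 on the plus strand, 18.1 kb apart. The interval of PSMB8 was longer than the probe itself, as was that of PSMB10 at chr5:23501550-23501735. The PSMB5 probe lay at chr17:43260938-43260997, and the PSMB6 probes lay at chr19:12326899-12326958 and chr19:12327789-12327848. No position was given for the PSMB7 probe. The longest run of bases shared by the probes of a pair was 6 of 60 for PSMB8 and PSMB5, 6 for PSMB9 and either probe of PSMB6, and 5 for PSMB10 and PSMB7. For the genes of the activator ring, the PSME1 probe and the first PSME2 probe lay 6.6 kb apart on chromosome 17. PSME2 was read by 5 probes that step along the transcript 1 base at a time, and the 56 bases that all of them share are in capitals in the sequence of the first:
PSME1: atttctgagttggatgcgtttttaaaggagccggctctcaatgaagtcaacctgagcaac
PSME2: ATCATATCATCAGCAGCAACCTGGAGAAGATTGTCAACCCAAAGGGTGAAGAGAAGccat

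The PSME1 probe was annotated at chr17:44184037-44184227 on the plus strand and the first PSME2 probe at chr17:44190832-44190891 on the minus strand. Since the PSME2 probes overlap almost entirely, their agreement is no independent evidence.

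Levels below are log2 median signals minus the median of the array, averaged over the probes of a gene, and a change is a difference of such levels. Between 51.4% and 62.3% of the spots of an array were well above background, and the 24 arrays lay on 3 slides of 8 arrays that each held all 6 groups. The number of arrays limits the precision. The lowest shares belonged to the LPS T4 array of rabbit 4 (51.4%) and the PMA-Ionomycin T4 array of rabbit 2 (52.6%), and the latter held the lowest value of its group for 39 of the 45 genes, so results at T4 are also given without both arrays where they depend on them. In the mock T4 cultures all 7 measured monocyte markers, all 5 B cell markers and 4 of 5 T cell markers were well above background on every array. All but 2 of the 45 genes were well above background on all 24 arrays. PSMA8, the alpha subunit of the testis, was so on 1 array and PSMB11, the catalytic subunit of the thymus cortex, on 2 arrays. PSMC3IP and PSME3IP1 carry the prefix but encode proteins that interact with proteasome subunits and are no subunits themselves, and they are described apart from the classes.

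At T4, PMA-Ionomycin lowered 4 of the 5 inducible genes and raised 11 of the other 40, of which 27 were not called. PSMB8, PSME2, PSMB9 and PSME1 fell, and the rises were led by the assembly chaperone PSMG1, the regulatory particle scaffold subunit PSMD11 and the alpha subunit PSMA4. In all, 11 of the 45 genes were called higher and 6 lower at an adjusted p under 0.05 in limma, where 13.5% of all 28865 genes were called higher and 9.34% lower, 22.8% in all. Among the inducible genes none rose and 4 of 5 fell, with a median log2 fold change of -0.99, against 11 higher and 2 lower of the other 40 with a median of 0.35 and a median over all genes of 0.05. These medians are descriptions without a test. In a bulk sample, fewer cells of a type and less RNA per cell cannot be told apart.

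PSMB8 encodes the catalytic subunit that takes the place of PSMB5. Its level was 3.72, 3.75, 3.79 and 4.36 in the mock T4 cultures of rabbits 1, 2, 4 and 5 and 2.52, 1.86, 2.52 and 2.34 after PMA-Ionomycin. All 4 stimulated cultures lay below all 4 mock cultures, and the gene fell by 1.60 ± 0.28 (SE, n = 4 per group) on the log2 scale, a 3.03-fold lower signal (adjusted p = 0.000143). PSME2, the second subunit of the activator ring, read 8.65, 8.45, 8.09 and 7.81 in mock and 6.96, 6.66, 6.48 and 6.61 after PMA-Ionomycin. Again the groups did not overlap, and PSME2 fell by 1.58 ± 0.29 (SE), 2.98-fold (adjusted p = 0.000202). Both changes kept their call under all 17 alternative settings tried, between -1.83 and -1.45 for PSMB8 and between -1.82 and -1.5 for PSME2.

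PSMB9, which replaces PSMB6, was at 8.16, 6.78, 7.11 and 7.49 in mock T4 and 6.46, 6.14, 6.49 and 6.47 after PMA-Ionomycin. It fell by 0.99 ± 0.30 (SE; adjusted p = 0.0184). The mock cultures of this gene were spread over more than a log2 unit while the stimulated ones were close together, and the call was lost without rabbit 1 (-0.76), without rabbit 4 (-1.12) and without the 2 dimmest arrays (-0.91). Within slides it was -1.17, -1.16 and -0.31. PSME1, the partner of PSME2, stood at 4.95, 5.15, 4.94 and 5.34 in mock and at 4.59, 4.45, 4.68 and 4.09 after stimulation, which did not overlap. It fell by 0.64 ± 0.22 (adjusted p = 0.0321), a call lost without rabbits 1, 2 or 5 (between -0.74 and -0.44). PSMB10 went from 4.69, 4.35, 4.42 and 4.39 in mock to 3.88, 3.75, 3.99 and 3.27, also without overlap. Its log2 fold change of -0.74 ± 0.29 did not pass the test (adjusted p = 0.072), and it was called lower with quantile normalization, with the processed signal, with normexp and with the deposited values. With these the inducible genes called lower at T4 were 5 of 5.

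**Figure D1:**
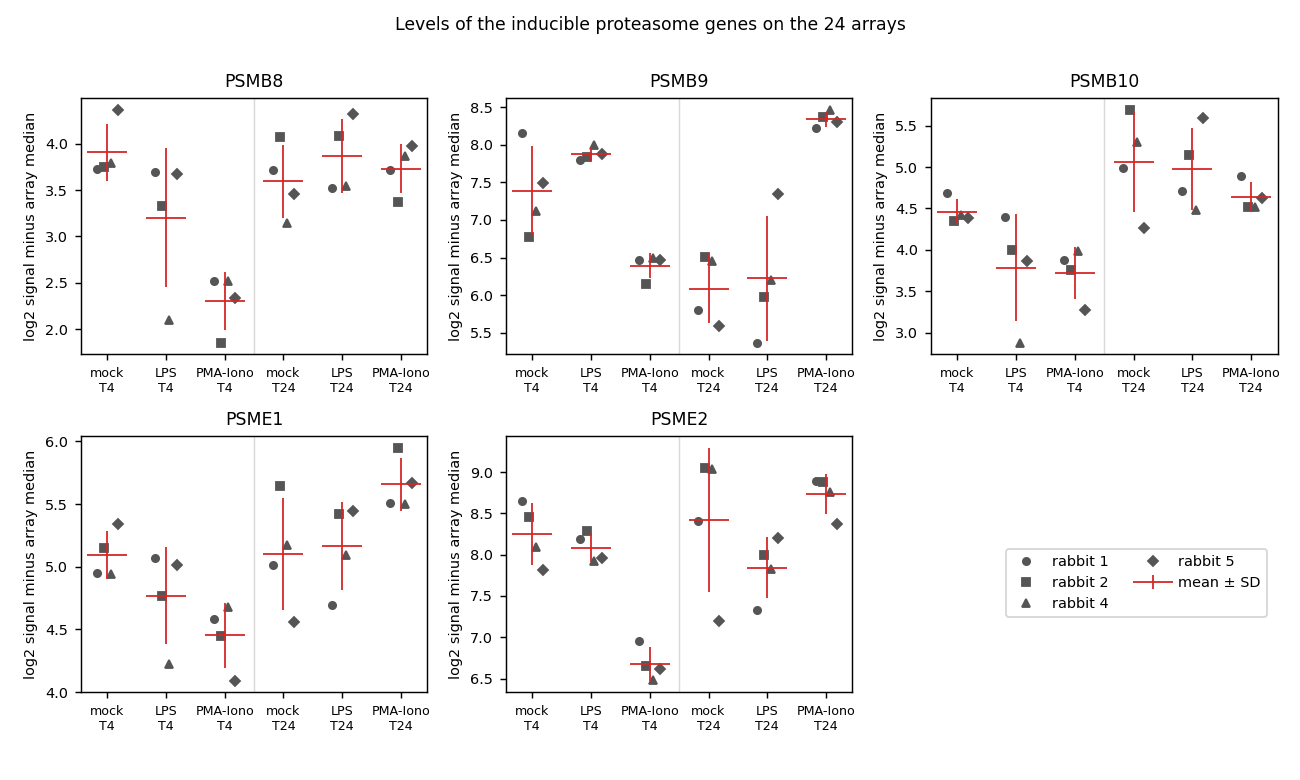
Levels of the 5 inducible proteasome genes in the 6 groups, as log2 median signal minus the array median on the vertical axis, with a marker for each rabbit and the mean ± SD (n = 4) in red. PSMB8 and PSME2 were lower in the PMA-Ionomycin T4 cultures than in every mock T4 culture, and PSMB9 rose to between 8.23 and 8.47 in the PMA-Ionomycin T24 cultures.

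The rises at T4 came from other classes. PSMG1 is a chaperone that pairs with another chaperone, PSMG2, to assemble the alpha ring. Its level was 2.59, 2.40, 2.25 and 2.41 in mock and 3.95, 3.63, 4.08 and 4.26 after PMA-Ionomycin, so that it rose 2.96-fold (log2 1.56 ± 0.13, adjusted p = 2.62e-09). PSMD11, a subunit of the lid, went from 4.07, 4.43, 3.96 and 4.17 to 5.31, 5.33, 6.11 and 5.76, a 2.77-fold rise (log2 1.47 ± 0.16, adjusted p = 3.35e-07). Both groups were apart without overlap for these genes. PSMA4 rose 2.17-fold (adjusted p = 0.00628) from 2.46, 2.81, 3.04 and 3.30 to 3.98, 3.27, 4.84 and 3.99, with the stimulated culture of rabbit 2 just below the mock culture of rabbit 5, and its call was lost without rabbit 1 (0.98).

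By class at T4, 6 of the 12 measured PSMD genes rose, with a median of 0.54. PSMD5, PSMD9 and PSMD10 among them encode chaperones that assemble the base of the regulatory particle, and of these 3 PSMD9 was called higher (0.47, adjusted p = 0.0403), a call lost under 7 of the 17 alternatives, among them the processed signal, the deposited values, the slide as a block and leaving out rabbit 1 or rabbit 4. The other 9 encode its non-ATPase subunits, and 5 of them rose, PSMD2, PSMD7, PSMD11, PSMD12 and PSMD14, the deubiquitinase of the lid. The core beta ring without the inducible genes held 2 risers of 8, PSMB1 and PSMB3, and PSMB7 was also called higher in 5 of the 17 alternative settings, among them the rabbit as a block and leaving out the 2 dimmest arrays. The alpha ring held 1 of 7, PSMA4, and the ATPase base 0 of 6, with log2 fold changes between -0.17 and 0.51. PSME3, which forms an activator of nuclear proteasomes, rose by 0.94 ± 0.14 (adjusted p = 1.48e-05). The inhibitor PSMF1 was at 0.02, and the chaperone PSMG2 fell by 0.43 ± 0.15 (adjusted p = 0.0379) while its partner PSMG1 rose, and the call of PSMG2 was lost under 6 of the 17 alternatives, among them leaving out rabbit 1, rabbit 2 or the 2 dimmest arrays. The balance of calls depended on the scaling. With quantile normalization 8 genes were called higher, the 11 without PSMB1, PSMB3 and PSMD12, and 11 were called lower. The added lower genes were PSMB10, PSMD6 and the alpha subunits PSMA1, PSMA2 and PSMA6, and the median of the alpha ring turned from 0.07 to -0.20. Over all genes 3711 were called higher and 3679 lower with this setting, against 3883 and 2695 in the main fit. Without the 2 dimmest arrays 18 genes were called higher and 3 lower. The genes gained as higher were PSMA5, PSMB2, PSMB5, PSMB7, PSMC3, PSMD3 and PSMG4. Without rabbit 1 the counts were 6 and 3 and without rabbit 4 there were 6 higher, with PSMB1, PSMB3 and PSMD12 lost in both. Without rabbit 2 there were 3 lower.

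**Figure D2:**
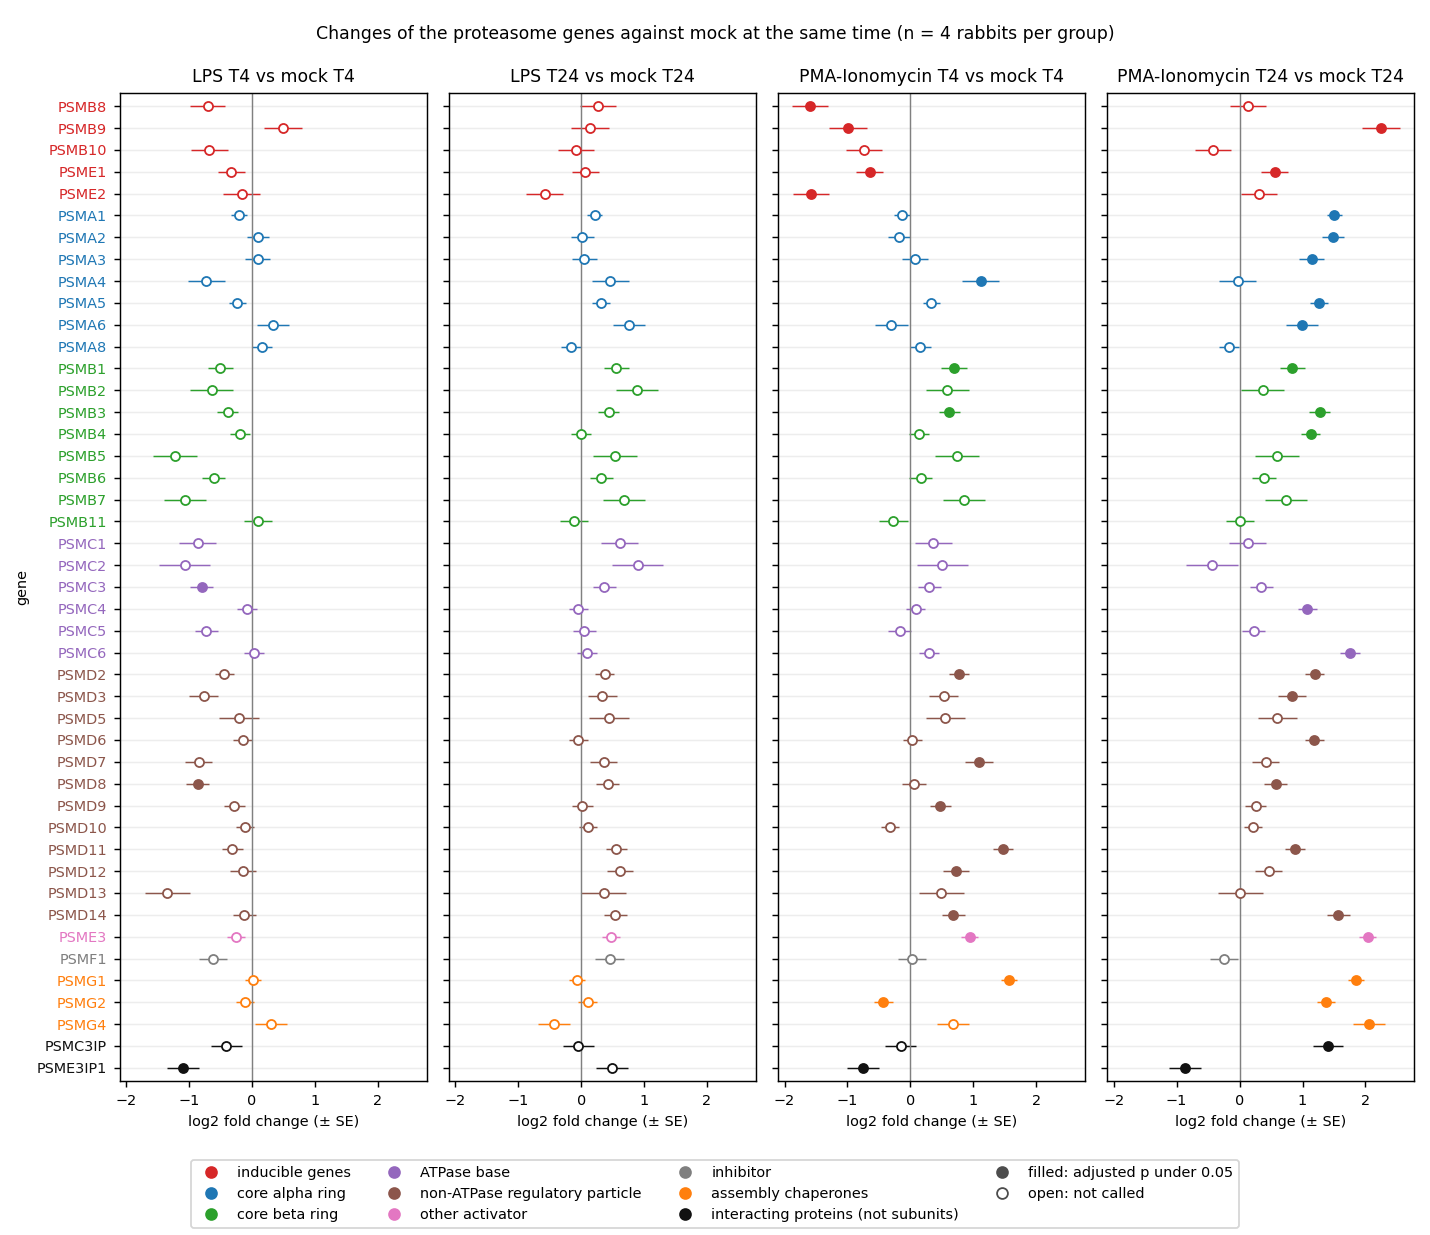
Log2 fold change (± SE) of each of the 45 proteasome genes against the mock cultures of the same time, n = 4 rabbits per group, in 4 panels by stimulation and time, coloured by class. Filled points passed an adjusted p of 0.05 over all genes and open points did not. The red inducible genes lie left of 0 after PMA-Ionomycin at T4, while most filled points after PMA-Ionomycin at T24 lie to the right.

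At T24, PMA-Ionomycin raised 23 of the 45 genes, 1 was called lower, PSME3IP1, and 21 were not called, where 22.1% of all genes were called higher and 11.5% lower, 33.6% in all. The median log2 fold change over the 45 genes was 0.60, against 0.03 over all genes. PSMB9, the chaperone PSMG4 and the activator PSME3 rose most, each over 4-fold, and PSMG1, PSMG2 and PSMG4, the 3 measured PSMG chaperones, which assemble the core, rose. Of the inducible genes PSMB9 and PSME1 were called higher and none lower. Their median of 0.31, against 0.78 for the other 40, changed sign with quantile normalization (-0.29) and with normexp (-0.28), so no common direction can be given for them at T24. The median of the other 40 fell to 0.30 and 0.29 under these settings. Of the 23 calls, 17 remained with quantile normalization, which lost PSMA6, PSMB1, PSMD3, PSMD8, PSMD11 and PSME1. With normexp 18 remained, without PSMA6, PSMB1, PSMD8, PSMD11 and PSME1. With the processed signal 19 remained, without PSMA6, PSMD3, PSMD8 and PSME1, and with the deposited values 21, without PSMD8 and PSME1. Over all genes the number called higher fell too, from 6391 in the main fit. It was 4983 with quantile normalization, 4933 with normexp, 4680 with the processed signal and 5339 with the deposited values.

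PSMB9 read 5.80, 6.51, 6.45 and 5.58 in the mock T24 cultures and 8.23, 8.36, 8.47 and 8.30 after PMA-Ionomycin, and thus rose 4.77-fold (log2 2.25 ± 0.30, adjusted p = 1.99e-06). The stimulated cultures lay close together and all above every mock culture. The log2 fold change of PSMB9 was 2.21, 2.56 and 1.88 within the 3 slides and stayed between 1.61 and 2.39 over the 17 alternatives, with the call kept in each. PSME1 rose by 0.56 ± 0.22 (adjusted p = 0.0491), from 5.02, 5.64, 5.17 and 4.56 to 5.51, 5.95, 5.50 and 5.67 with overlap between the groups. That call lay just inside the threshold, was lost without any one of the 4 rabbits, and the difference turned to -0.020 with quantile normalization and to -0.045 with normexp. PSMB8 (0.13 ± 0.28, adjusted p = 0.832), PSME2 (0.31 ± 0.29, adjusted p = 0.52) and PSMB10 (-0.42 ± 0.29, adjusted p = 0.323) did not pass the test at T24. PSME2 in the mock T24 cultures ranged from 7.19 in rabbit 5 to 9.05 in rabbit 2, the widest SD of any inducible gene in a group (0.87), and the stimulated cultures, at 8.90, 8.88, 8.76 and 8.38, lay inside that range.

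Among the other classes at T24, PSMG4, another chaperone of core assembly, went from 4.24, 4.64, 4.66 and 4.40 to 6.65, 6.47, 6.49 and 6.59, a 4.18-fold rise (log2 2.06 ± 0.25, adjusted p = 5.54e-07). PSME3 went from 2.59, 2.42, 2.23 and 2.12 to 4.65, 4.31, 4.33 and 4.23, a 4.10-fold rise (log2 2.04 ± 0.14, adjusted p = 5.33e-11). In both genes all 4 stimulated cultures exceeded all mock cultures by more than the spread within either group. PSMG1 rose 3.60-fold (log2 1.85 ± 0.13, adjusted p = 5.08e-11) and PSMG2, which had fallen at T4, rose 2.59-fold (log2 1.37 ± 0.15, adjusted p = 8.24e-08). The alpha ring had 5 risers of 7 genes, PSMA1, PSMA2, PSMA3, PSMA5 and PSMA6, with log2 fold changes from 0.99 to 1.51, while PSMA4, the riser of T4, was back at its mock level (-0.03 ± 0.29).

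The beta ring without the inducible genes had 3 risers of 8, PSMB1 (0.84), PSMB3 (1.27) and PSMB4 (1.13), all of them non-catalytic subunits. The catalytic subunits PSMB5 (0.59 ± 0.35), PSMB6 (0.39 ± 0.19) and PSMB7 (0.73 ± 0.34) were not called. All of them were called higher with array weights, and PSMB6 and PSMB7 also without the 2 dimmest arrays and with the arrays of the comparison alone. The probes of PSMB6 disagreed at T24, with -0.14 for probe 1 and 0.92 for probe 2, of which only the second was called in the fit to single probes. In the ATPase base, whose members form the ring that unfolds substrates, PSMC6 (1.75) and PSMC4 (1.08) rose and the other 4 did not pass the test, with PSMC2 at -0.44. PSMC6 read 5.02, 5.07, 5.08 and 4.46 in mock T24 and 6.90, 6.82, 6.50 and 6.42 after PMA-Ionomycin, and its 3 probes gave changes between 1.70 and 1.80. Of the 12 PSMD genes 6 rose, all of them among the 9 non-ATPase subunits, PSMD2 (1.19), PSMD3 (0.83), PSMD6 (1.19), PSMD8 (0.57), PSMD11 (0.88) and PSMD14 (1.56), of which PSMD8 was lost without rabbit 1 or rabbit 4 and turned to -0.053 with quantile normalization and to -0.044 with normexp.

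**Figure D3:**
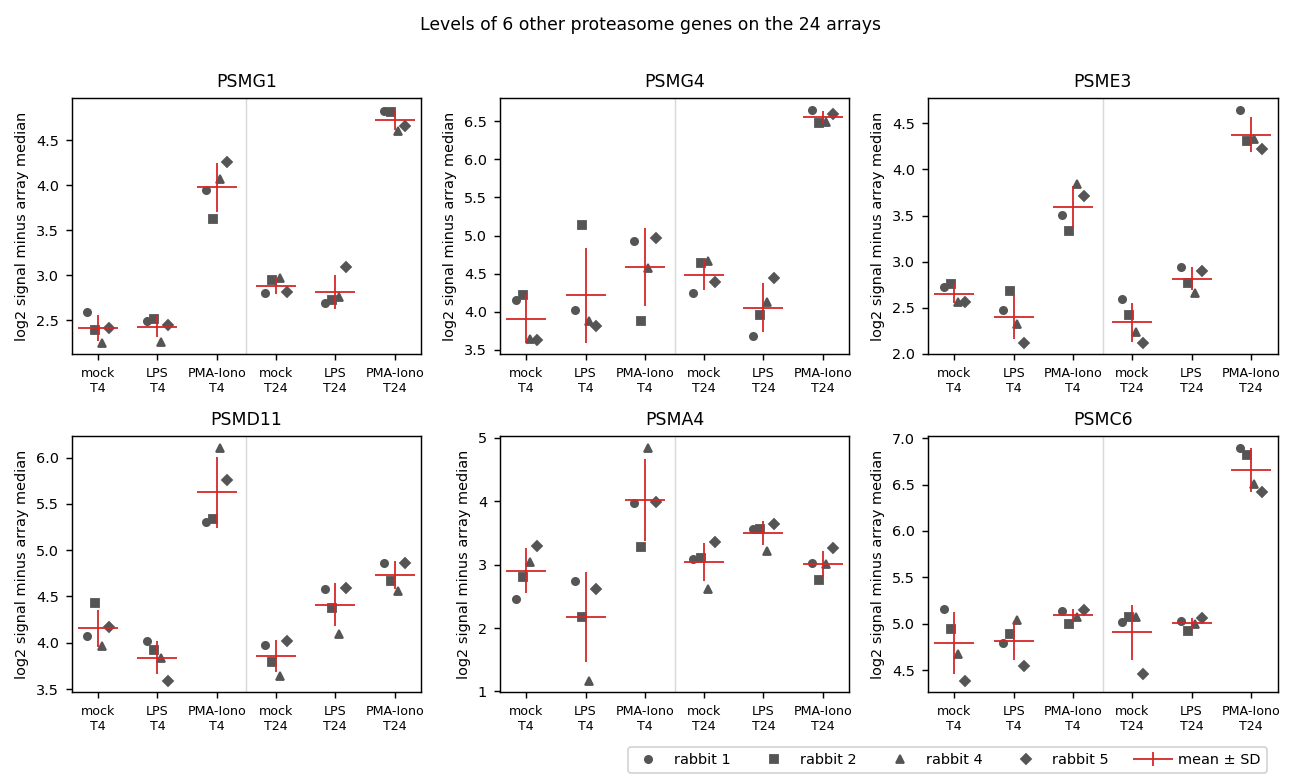
Levels of PSMG1, PSMG4, PSME3, PSMD11, PSMA4 and PSMC6 in the 6 groups, as log2 median signal minus the array median, with a marker for each rabbit and the mean ± SD (n = 4) in red. PSMG1 and PSME3 were above mock at both times after PMA-Ionomycin, PSMC6 only reached its higher level, 6.42 to 6.90, at T24, and PSMA4 was higher than mock in each rabbit at T4, with overlap between the groups (3.27 in rabbit 2 against 3.30 in the mock culture of rabbit 5).

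The 2 times were compared directly by testing whether the change against mock at T24 differed from that at T4. The difference was called positive for 18 of the 45 genes and negative for none, where 14.4% of all genes were called positive and 8.14% negative, 22.5% in all. The inducible genes took 4 of these calls. The T24 change exceeded the T4 change of PSMB9 by 3.24 ± 0.43 (adjusted p = 4.42e-06), of PSME2 by 1.88 ± 0.41 (adjusted p = 0.00125), of PSMB8 by 1.73 ± 0.40 (adjusted p = 0.00226) and of PSME1 by 1.20 ± 0.30 (adjusted p = 0.00488), in all 4 rabbits for each, with the call of PSME1 lost without rabbit 5, while PSMB10 (0.32 ± 0.41, adjusted p = 0.728) did not pass. The median was 1.73 for the inducible genes, 0.29 for the other 40 and -0.02 for all genes. PSMB10 went the other way in rabbits 2 and 4. Of the 13 genes that were called at T24 alone, higher in each, 11 were also called in this direct test, PSMA1, PSMA2, PSMC6 and PSMG4 among them. Of the 4 called higher at T4 alone, PSMA4, PSMD7, PSMD9 and PSMD12, none was, with PSMA4 at -1.14 ± 0.42 (adjusted p = 0.051). PSMA4 was called negative with quantile normalization, with the processed signal, with normexp, with the deposited values and with the rabbit as a block, among others. PSMD7 was called negative with the processed signal and with normexp. PSMD11, called higher at both times, was called negative with quantile normalization, the processed signal, normexp and the deposited values, among others. A further 7 genes were called higher at both times, PSMB1, PSMB3, PSMD2, PSMD11, PSMD14, PSME3 and PSMG1, and 3 were called lower at T4 and higher at T24, PSMB9, PSME1 and PSMG2. Of these, the T4 calls of PSMB9 and PSMG2 were lost without the 2 dimmest arrays, and the T24 call of PSME1 was lost without any one rabbit.

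The constitutive catalytic subunits were not called after PMA-Ionomycin at T4. PSMB5 read 4.21, 4.77, 4.79 and 5.39 in the mock T4 cultures of rabbits 1, 2, 4 and 5 and 5.52, 4.75, 6.21 and 5.63 after PMA-Ionomycin (log2 fold change 0.73 ± 0.35, SE, adjusted p = 0.155 in limma). PSMB7 read 3.43, 3.71, 3.67 and 4.32 in mock and 4.68, 3.97, 5.16 and 4.76 after stimulation (0.86 ± 0.34, adjusted p = 0.0732). PSMB6 read 6.36, 6.49, 6.65 and 6.99 in mock and 6.77, 6.26, 7.09 and 7.02 after stimulation (0.16 ± 0.19, adjusted p = 0.692). The groups overlapped in all of them, with rabbit 2 the lowest of the stimulated cultures. PSMB5 and PSMB7 were called higher with array weights and without the 2 dimmest arrays. After LPS, PSMB6 stood at -0.61 ± 0.19 at T4 (adjusted p = 0.104) and 0.32 ± 0.19 at T24 (adjusted p = 0.597).

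Within each array, the inducible and constitutive genes of a pair were then set against each other, which cancels any scaling of the whole array. At T4 after PMA-Ionomycin the change of PSMB8 lay 2.33 log2 units below that of PSMB5 (-1.60 against 0.73). The differences were -2.51, -1.87, -2.69 and -2.27 in rabbits 1, 2, 4 and 5. The change of PSMB10 lay 1.60 below that of PSMB7 (-2.06, -0.85, -1.92 and -1.56). That of PSMB9 lay 1.15 below that of PSMB6 (-2.11, -0.40, -1.06 and -1.05). At T24 the PSMB9 pair had turned, with the change of PSMB9 1.86 above that of PSMB6 (2.24, 1.55, 1.46 and 2.20). The change of PSMB10 lay 1.16 below that of PSMB7 (-0.41, -1.47, -2.31 and -0.45). That of PSMB8 lay 0.46 below that of PSMB5 (-0.26, -0.91, -0.57 and -0.08). The first 3 of these and the PSMB9 pair at T24 reached p = 0.0286 in a two-sided exact permutation test, the smallest p that 4 against 4 arrays allow. Adjusted over the 12 tests they stood at p = 0.0857 by the exact permutation test, so none passed the threshold after correction. This test exchanges arrays between rabbits. Exchanging signs within rabbits, an exact test that keeps the pairing, cannot go below p = 0.125 with 4 rabbits. The PSMB6 side of its pair is the mean of 2 probes that disagreed. After LPS the differences ranged from -0.76 to 1.10, with no pair alike in all 4 rabbits and exact permutation p-values from 0.0857 to 0.714.

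**Figure D4:**
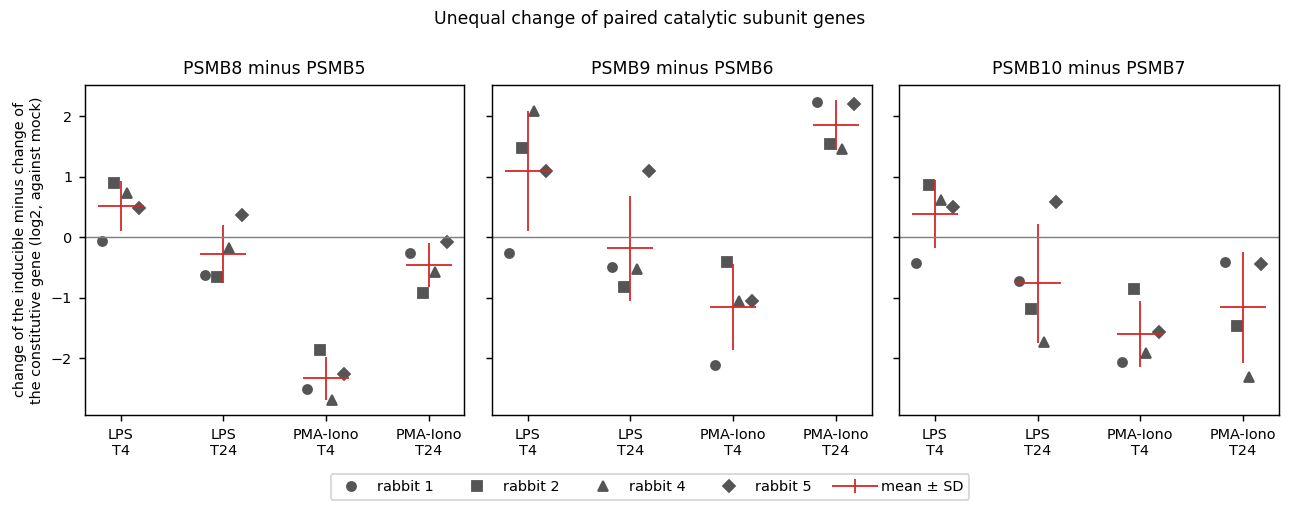
Change of the inducible gene minus change of the constitutive gene it can replace, each against mock of the same time in the same rabbit, on the log2 scale, for the 3 pairs in 4 comparisons. Markers are rabbits and red bars the mean ± SD (n = 4). All 4 rabbits lie below 0 for each pair after PMA-Ionomycin at T4, and above 0 for PSMB9 minus PSMB6 at T24.

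After LPS the number of proteasome genes called depended on the setting. At T4, 3 of the 45 genes were called lower and none higher, where 0.973% of all genes were called lower and 0.0554% higher, 1.03% in all. These were PSME3IP1 (-1.09 ± 0.26, adjusted p = 0.0454), the lid subunit PSMD8 (-0.87 ± 0.19, adjusted p = 0.0383) and the ATPase PSMC3 (-0.80 ± 0.18, adjusted p = 0.0428). PSMD8 read 5.13, 5.26, 5.49 and 5.78 in mock and 4.73, 4.39, 4.29 and 4.79 after LPS. PSMC3 read 2.39, 2.81, 2.70 and 2.60 in mock and 2.27, 1.95, 1.20 and 1.87 after LPS. In both the LPS cultures lay below all mock cultures, with rabbit 4 lowest. In all 36 of 45 log2 fold changes were negative, with a median of -0.32, and 19 genes were lower and none higher at an unadjusted p under 0.05 in limma, where 9.31% of all genes were lower and 4.6% higher at that p.

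The T4 count after LPS was 0 without the 2 dimmest arrays, 0 without rabbit 2, rabbit 4 or rabbit 5, 1 without rabbit 1, and 0 with quantile normalization, the processed signal, normexp and the deposited values. Over all genes the number called lower fell too, from 281 in the main fit. It was 89 with quantile normalization, 7 with the processed signal, 78 with normexp and 64 with the deposited values. With the rabbit as a block the count of proteasome genes rose to 10, adding PSMB5, PSMB6, PSMB7, PSMC5, PSMD3, PSMD7 and PSMD13. In the fit without the block, PSMB5 (-1.22 ± 0.35, adjusted p = 0.083) and PSMB7 (-1.07 ± 0.34, adjusted p = 0.118) had differences that varied between the rabbits. PSMB5 was 4.21, 4.77, 4.79 and 5.39 in mock and 4.24, 3.45, 2.37 and 4.21 after LPS, so that the difference was 0.02 in rabbit 1 and -2.42 in rabbit 4. The inducible genes were not called, with PSMB8 at -0.71 ± 0.28 (adjusted p = 0.239) and PSMB9 at 0.49 ± 0.30 (adjusted p = 0.502). In PSMB9 the 4 LPS cultures were close, at 7.79, 7.84, 8.0 and 7.88, inside the range of the mock cultures.

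At T24 no proteasome gene was called after LPS in limma, where 0.641% of all genes were called higher and 0.582% lower, 1.22% in all. At an unadjusted p under 0.05, 13 genes were higher and none lower, where 4.78% of all genes were higher and 6.07% lower, and the median log2 fold change was 0.32. PSME3 (0.47 ± 0.14, adjusted p = 0.107), PSMD11 (0.56 ± 0.16, adjusted p = 0.111) and PSMA6 were called higher with quantile normalization and with normexp, and PSMA6 with the rabbit as a block. The inducible genes lay between -0.58 for PSME2 and 0.27 for PSMB8, and PSME2 was called lower without rabbit 5 (-1.11, adjusted p = 0.0062). In rabbit 5 PSMB9, PSMB10 and PSME2 were higher after LPS than in mock, by 1.76, 1.32 and 1.01, while in the other 3 rabbits they were lower. The T24 change exceeded the T4 change in 37 of 45 genes, of which 4 were called, PSMC3 (1.17 ± 0.26, adjusted p = 0.0241), PSMD7 (1.21 ± 0.31, adjusted p = 0.043), PSMD8 (1.28 ± 0.27, adjusted p = 0.0171) and PSME3IP1 (1.59 ± 0.36, adjusted p = 0.0248), against 1.71% of all genes called positive and 0.239% negative, 1.95% in all. The count was 19 with the rabbit as a block and 0 without rabbit 2, 4 or 5 or with the processed signal.

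Culture alone changed few of these genes. Between mock T4 and mock T24, 1 of the 45 was called higher and 2 lower, where 7.4% of all genes were called higher and 5.13% lower, 12.5% in all. PSMB9 had the largest difference, down from 8.16, 6.78, 7.11 and 7.49 to 5.80, 6.51, 6.45 and 5.58, by 1.30 ± 0.30 (adjusted p = 0.00454), and the call was lost without rabbit 1 (-0.94), whose mock T4 culture was the highest, and the difference within slide 3 was -0.27. Part of the difference between the T4 and T24 changes of PSMB9 after PMA-Ionomycin therefore lies in its mock cultures, since the stimulated cultures themselves went from 6.46, 6.14, 6.49 and 6.47 to 8.23, 8.36, 8.47 and 8.30. PSMG1 rose by 0.47 ± 0.13 (adjusted p = 0.0122), lost without rabbit 2 or rabbit 4. The other 4 inducible genes were not called, between -0.31 for PSMB8 and 0.60 for PSMB10.

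The interacting proteins behaved unlike each other. PSMC3IP, which acts in homologous recombination, fell in mock culture from 1.85, 1.5, 1.87 and 2.45 at T4 to 0.71, 0.78, 1.02 and 1.43 at T24 (by 0.93 ± 0.25, adjusted p = 0.0113), a call lost without rabbit 1 or rabbit 4. After PMA-Ionomycin at T24 it stood at 2.37, 1.96, 2.52 and 2.71, a 2.65-fold rise over mock (log2 1.41 ± 0.25, adjusted p = 6.23e-05). PSME3IP1, which binds the PSME3 activator, was lower than mock after PMA-Ionomycin at both times, by 0.75 ± 0.26 at T4 (adjusted p = 0.0362) and 0.87 ± 0.26 at T24 (adjusted p = 0.00981), the first lost without rabbits 2, 4 or 5, without the 2 dimmest arrays (-0.53) and with the arrays of the comparison alone, and the second without rabbit 1. PSME3 itself rose at both times.

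Over the 24 arrays the levels of the 5 inducible genes correlated with one another with a median Pearson r of 0.62 (10 pairs, from -0.11 to 0.75), the 36 other detected subunit genes and chaperones with one another with a median of 0.58 (630 pairs, from -0.43 to 0.99), and inducible with other genes with a median of 0.19 (180 pairs). These points share arrays, rabbits and treatments and are given as a description only. Of the 19 genes with more than 1 probe, after PMA-Ionomycin all probes moved one way in 18 genes at T4 and in 14 at T24, with a median spread between probes of 0.09 and 0.11 log2 units. PSMD12 had the widest spread at T24, from -0.37 to 0.89. As in PSME2, the 5 probes each of PSMB4, PSMD2, PSMD13, PSMG1 and PSMG4 overlap almost entirely, so their agreement is no independent evidence.

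Other genes of the pathway were taken whole from lists set by function. Their counts after PMA-Ionomycin stand beside 13.5% of all genes called higher and 9.34% lower at T4, and 22.1% higher and 11.5% lower at T24. Of 12 measured partners of the proteasome in the ubiquitin system, 4 rose and none fell at T4, and 4 rose and 1 fell at T24. The assembly factor POMP, which brings the beta rings together, rose by 1.36 at T24 (adjusted p = 1.03e-05) and was not called at T4 (0.30, adjusted p = 0.386). The proteasome-bound deubiquitinase USP14 rose by 1.41 at T24 (adjusted p = 1.98e-09). NFE2L1, the factor that activates proteasome genes when the complex is inhibited, rose by 0.42 at T4 (adjusted p = 0.0139) and was not called at T24 (0.20), while NFE2L2, the factor of the oxidative stress response, fell by 1.47 at T24 (adjusted p = 0.00359). Of 5 measured peptide loading genes, TAP1, the peptide transporter encoded beside PSMB8 and PSMB9 in mammals, was the only gene called after PMA-Ionomycin at T24 and rose by 1.45 (adjusted p = 0.00387). At T4 TAP1 had a log2 fold change of 0.69 (adjusted p = 0.24), where PSMB8 and PSMB9 fell. None of these 5 was called in the other comparisons with mock in limma.

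Among 8 measured regulators of the interferon gamma response, IFNG not counted, 2 rose and 2 fell at T4 and 2 rose and 3 fell at T24 after PMA-Ionomycin. Over all genes 13.5% were called higher and 9.34% lower at T4, and 22.1% higher and 11.5% lower at T24. IRF1, a transcription factor of the interferon response, rose by 1.48 at T4 (adjusted p = 0.000289) and was not called at T24 (0.51, adjusted p = 0.19). The receptor genes IFNGR1 and IFNGR2 fell by 2.59 and 3.70 at T24. IFNG itself was read by 2 probes that disagreed. One was well above background on all arrays and fell by 0.79 at T4 and 1.34 at T24 (adjusted p = 0.0381 and 0.000361 over all probes). The other was not well above background on any mock or LPS array and was so on all 8 PMA-Ionomycin arrays, at least 7.97-fold brighter at T4 and at least 13.0-fold at T24, so no value is given for their mean. Which of the 2 probes reads IFNG was not tested.

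Transcripts that mark monocytes and cell division also changed in these comparisons. The 7 measured monocyte markers had a mean level between 2.99 and 4.24 in the mock T4 cultures, 2.32 and 2.95 after PMA-Ionomycin at T4, 4.65 and 5.73 in mock T24 and 2.73 and 3.28 after PMA-Ionomycin at T24, with 4 of 7 called lower at T4 and 5 of 7 at T24, CYBB (-4.81) and CSF1R (-3.29) furthest, and each marker was still well above background on some array of every group. After LPS at T4 they lay between 2.40 and 3.0, with 3 of 7 called lower. The 6 measured cell division genes had a mean level between 3.12 and 3.80 in mock T4, between 1.39 and 1.98 in mock T24 and between 5.31 and 5.82 after PMA-Ionomycin at T24, with 6 of 6 called higher there, CDK1 (4.71) and CCNB1 (4.29) furthest, and 3 of 6 called lower at T4. Between mock T4 and mock T24, where PSMB9 and PSMC3IP fell, 6 of 6 cell division genes were called lower, with a median of -1.89, and 5 of 7 monocyte markers higher, with a median of 1.71. Part of the T24 difference of the cell division genes from mock therefore lies in the mock cultures. Of 5 B cell markers 1 rose and 2 fell at both times after PMA-Ionomycin, and of 5 T cell markers 1 rose and 1 fell at T24. Over all genes 22.1% were called higher and 11.5% lower at T24, and 13.5% higher and 9.34% lower at T4. Of the sparser lists at T24, 2 of 3 neutrophil markers fell, the 1 measured natural killer cell marker rose, and none of 2 platelet and 3 erythrocyte markers was called. The part of these markers in the changes of the proteasome genes was not tested.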

How the data were processed

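RNA from each of the 24 cultures, carrying Cy3 dye, was measured on a custom rabbit array in one colour, and the authors extracted spot intensity from the scans with Agilent Feature Extraction 10.7.3.1. The file headers name the one-colour protocol while the methods name the 2-colour one. The deposited log2 value table equals log2 of the median signal after subtraction of the array mean, and it served as an alternative. The deposited intensity files gave the median signal of 61657 non-control spots. These values were log2-transformed and centred on the array median, outlier spots were left out, and spots were averaged per probe (42089) and probes per gene (28865). Of the 100 probes, 52 were named through RefSeq accessions, 33 through gene numbers, 10 by the gene name in the files and 5 through the study's list of added genes, which alone named PSMA2, PSMC4, PSMD6 and PSMD10. PSMA7, PSMD1, PSMD4, PSME4 and PSMG3 were not analysed here. Signals that carry no background subtraction understate fold changes of dim genes.

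One linear model with 6 group means, over all 24 arrays, was fitted in limma 3.58.1 under R 4.3.3, and p-values were adjusted by Benjamini-Hochberg over all genes, with calls at an adjusted p under 0.05. The 7 comparisons were each stimulation against mock at each time, the difference of these changes between times, and mock T24 against mock T4. Paired subunit genes were compared by exact permutation over 8 arrays in Python 3.11.15 with scipy 1.17.1. On simulated data with 200 changed genes of 28750, the fit for PMA-Ionomycin at T24 recovered 78% of changes of 1 log2 unit and 98% of those of 2, with 7.37% of its calls false. The fits of the difference between times recovered 51% (LPS) and 49% (PMA-Ionomycin) of changes of 1 log2 unit. The simulated arrays held no rabbit effect and as many rises as falls. In the data 33.6% of all genes were called after PMA-Ionomycin at T24, so these rates need not hold for the data.

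The rabbit number pairs the arrays, since the same animals gave all cultures. Deviations from the group means of arrays of one rabbit correlated with a median of 0.23 (60 pairs), against -0.07 between rabbits (180 pairs). Alternative settings were a rabbit block, a slide block, quantile normalization, Agilent's processed signal (set to the 75th percentile of an array), normexp with offset 50 followed by quantile normalization, the deposited table, leaving out dim probes, keeping outlier spots, fitting the arrays of a comparison alone, array weights, a trended robust fit, single probes and leaving out each rabbit. Leaving out the 2 dimmest arrays was added after seeing the data.

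The members and the gene lists (inducible and constitutive subunits, ubiquitin-proteasome partners, peptide loading, interferon gamma regulators, cell type markers, cell division) were chosen with earlier results of these data known. Named by rule were PSMB5 to PSMB10, PSME1 and PSME2, PSMC3IP, and the 3 largest rises and falls among the called genes of each comparison with mock and of mock T24 against mock T4, with other members named where their class is described. From the other lists came up to 2 called genes with the largest change after PMA-Ionomycin at T24, and TAP1, IRF1, IFNG, NFE2L1, NFE2L2 and POMP, while TAP2 was not analysed here and 1 further gene of the rule is not reported here. That PSME3IP1 is no subunit, and PSMC6 for a plot, were choices made after the values were seen.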

Additional observations from a re-analysis of the deposited data

Results flagged for a closer look

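In 4 of 102 groups of 4 levels (17 genes in 6 groups), 1 culture stood apart from the other 3 by Dixon's criterion (its gap to the next value as a ratio of the range), where chance gives about 1 in 20. PSMB8 in mock T4 was 4.36 in rabbit 5 against 3.72 to 3.79 in the others (ratio 0.886). PSMB9 after PMA-Ionomycin at T4 was 6.14 in rabbit 2 against 6.46 to 6.49 (ratio 0.925). PSMC3 after PMA-Ionomycin at T24 was 2.85 in rabbit 2 against 3.15 to 3.19 (ratio 0.908). PSMG4 after LPS at T4 was 5.13 in rabbit 2 against 3.82 to 4.03 (ratio 0.841).

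The change against mock differed between T24 and T4 by the interaction test in limma for 10 results of the genes named by rule. After PMA-Ionomycin the difference was 3.24 for PSMB9, 1.88 for PSME2, 1.73 for PSMB8, 1.56 for PSMC3IP, 1.39 for PSMG4, 1.20 for PSME1 and 1.09 for PSME3. After LPS it was 1.59 for PSME3IP1, 1.28 for PSMD8 and 1.17 for PSMC3.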

How the results depend on the processing

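Of 34 called changes of the genes named by rule, 15 kept their call under every alternative setting, 19 lost it under at least 1, and 2 changed sign. PSME1 after PMA-Ionomycin at T24 turned to -0.020 with quantile normalization, -0.045 with normexp and -0.060 within slide 3, and PSMD8 to -0.053 with quantile normalization and -0.044 with normexp. The cause was not tested. The processed signal moved the median of all genes from 0.03 to -0.26 after PMA-Ionomycin at T24 and from 0.06 to 0.22 after LPS at T4. The 3 genes called lower after LPS at T4 became 0 with quantile normalization, the processed signal, normexp, the deposited table, the arrays of the comparison alone and without the 2 dimmest arrays, 1 with the trended robust fit, 6 without dim probes and 10 with array weights. With the rabbit as a replicate block the count was 10 for LPS at T4, 1 higher for LPS at T24, 19 for the LPS difference between times, and 1 negative for the PMA-Ionomycin difference, and the block kept all 34 called changes and added PSMB7, higher, for PMA-Ionomycin at T4. For LPS at T24 there were 3 higher with quantile normalization, normexp or array weights. For PMA-Ionomycin at T4 there were 18 higher with array weights and without the 2 dimmest arrays, 11 lower with quantile normalization and normexp, and 3 lower without those arrays. At T24 there were 2 lower with quantile normalization and normexp. The LPS difference between times gave 0 with the processed signal, 2 with the arrays alone, 12 without dim probes and 18 positive and 1 negative with array weights. The PMA-Ionomycin difference gave 3 negative with the processed signal and normexp, 2 with quantile normalization, the deposited table, array weights and without the 2 dimmest arrays, and 1 without dim probes, with the arrays alone and with single probes. Mock culture over time gave 0 higher with the processed signal and 3 with array weights. Leaving out 1 rabbit gave 0 to 1 lower for LPS at T4, 0 to 1 lower for LPS at T24, 6 to 13 higher and 3 to 5 lower for PMA-Ionomycin at T4, 0 to 1 lower at T24, 0 to 4 positive for the LPS difference, 0 to 1 negative for the PMA-Ionomycin difference, and 0 to 1 higher and 0 to 2 lower in mock culture.

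The median of the inducible genes after LPS at T4 was -0.061 with the processed signal, -0.72 within slide 2 and -0.11 within slide 3. After PMA-Ionomycin it was -0.56 within slide 3 at T4, and -0.29 with quantile normalization and -0.28 with normexp at T24. The median of the other 40 genes was -0.63 within slide 1 for LPS at T4 and 0.090 within slide 3 for LPS at T24. After PMA-Ionomycin at T24 it was 0.30 with quantile normalization, 0.47 with the processed signal, 0.29 with normexp, 0.64 with the deposited table, 0.51 within slide 2, and 0.65 to 0.88 without 1 rabbit. For the PMA-Ionomycin difference it was 0.069 with quantile normalization and 0.086 with normexp, and in mock culture -0.18 within slide 1 and 0.24 within slide 2. Within slides the difference of PSMB8 and PSMB5 after PMA-Ionomycin at T24 was -1.10 (slide 3), that of PSMB9 and PSMB6 was 2.57 (slide 2) and 1.38 (slide 3), and after LPS at T24 -1.06 (slide 1) and 0.70 (slide 2). That of PSMB10 and PSMB7 was 1.43 (slide 1) after LPS at T4, and -0.76 (slide 1) and -2.49 (slide 2) after PMA-Ionomycin at T4. Within-slide values rest on 1 or 2 arrays per group. PSMA8 and PSMB11 were too dim for a change to be read.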
